A study of Mus musculus with 6 samples.

Results

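The genes described here belong to the imprinted cluster around Snrpn on mouse chromosome 7, Mkrn3 among them. They were taken by name from the table of the series and are Snrpn, Snurf, Snhg14, Ndn, Magel2, Mkrn3 and Peg12, that is 7 of 35591 rows. All 7 passed the filter on low reads and were tested. RNA was sequenced from tailbud tissue of 6 mouse embryos with 8 somites (E8.5), which holds the presomitic mesoderm (PSM), the tissue from which somites and later the vertebrae form. There were 3 wild-type embryos (Smchd1+/+, WT) and 3 embryos homozygous for MommeD43 (Smchd1 MommeD43/MommeD43, MD43), a missense allele of Smchd1 obtained by chemical mutagenesis with ENU. All were of strain FVB/NJ. Both groups consisted of a male (replicate 1) and 2 females (replicates 2 and 3). The 2 males had the same mother and the 4 females had 4 other mothers, so litter and genotype cannot be told apart among the females. As the strain is inbred, reads could not be assigned to the paternal or the maternal allele.

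Most genes of this cluster are expressed from the chromosome inherited from the father, while the maternal copies are silenced, a state set by DNA methylation laid down in the egg at the Snrpn promoter. Loss of the paternal copies of the matching human genes causes Prader-Willi syndrome. SMCHD1 is a chromatin protein that helps to silence the inactive X chromosome, Hox genes and some imprinted clusters, that of Snrpn among them. The comparison of MD43 with WT asks how RNA levels in the tailbud differ when SMCHD1 carries this mutation.

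On the GRCm38 assembly, Snhg14 (chr7:59307924-59975759), Snrpn (chr7:59982495-60140219) and Snurf (chr7:59995449-60005049) lie together on the minus strand, with Snurf inside Snrpn. The gap from Snrpn to Ndn (chr7:62346569-62350262, plus strand) was 2206349 bases. Then follow, close to each other, Magel2 (chr7:62377010-62381640, plus strand), Mkrn3 (chr7:62417593-62420139, minus strand) and Peg12 (chr7:62461871-62464510, minus strand), with gaps of 26.7 kb, 36.0 kb and 41.7 kb. Ndn, Magel2, Mkrn3 and Peg12 each have a single exon in GENCODE M21 and share no exon base with another gene.

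The 250 bases before the RefSeq start of the genes whose levels are compared below are shown 5′ to 3′ on the strand of the gene (GRCm38.p6). Mkrn3 (chr7:62420154-62420403, minus) and Peg12 (chr7:62464511-62464760, minus) are shown because their RNA levels differed most between the genotypes. Magel2 (chr7:62376729-62376978, plus) is the neighbour whose estimate pointed the other way. The window common to Snurf and Snrpn (chr7:60005200-60005449, minus) belongs to the most abundant transcripts. A window further upstream (chr7:60450178-60450427, minus) is the start of both Snhg14 and a Snrpn transcript in RefSeq. The gene models of Snhg14 and Snrpn whose levels were measured begin at 59975759 and 60140219 and do not reach this window. Capitals mark matches, on either strand, to CGCATGCG (core letters of the NRF1 motif), CCGGAAGT (ETS factors), ATGGCGG (YY1) and GGGCGG (the GC box), motifs picked after these sequences were seen.
Mkrn3: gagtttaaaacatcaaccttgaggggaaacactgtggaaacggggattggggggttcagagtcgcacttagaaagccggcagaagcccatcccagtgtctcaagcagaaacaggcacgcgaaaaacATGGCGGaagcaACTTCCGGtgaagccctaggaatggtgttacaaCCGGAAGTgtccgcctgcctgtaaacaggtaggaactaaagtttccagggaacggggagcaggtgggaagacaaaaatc
Peg12: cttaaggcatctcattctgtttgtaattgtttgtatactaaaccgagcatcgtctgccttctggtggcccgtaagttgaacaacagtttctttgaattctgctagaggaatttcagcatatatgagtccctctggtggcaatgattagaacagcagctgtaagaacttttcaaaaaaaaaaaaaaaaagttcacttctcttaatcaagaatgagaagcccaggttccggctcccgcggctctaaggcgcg
Magel2: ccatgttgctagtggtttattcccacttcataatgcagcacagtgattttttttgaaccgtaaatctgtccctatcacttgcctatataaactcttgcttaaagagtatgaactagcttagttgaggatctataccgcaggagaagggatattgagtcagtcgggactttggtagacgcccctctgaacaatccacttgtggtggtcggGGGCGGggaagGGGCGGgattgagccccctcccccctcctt
Snurf and Snrpn: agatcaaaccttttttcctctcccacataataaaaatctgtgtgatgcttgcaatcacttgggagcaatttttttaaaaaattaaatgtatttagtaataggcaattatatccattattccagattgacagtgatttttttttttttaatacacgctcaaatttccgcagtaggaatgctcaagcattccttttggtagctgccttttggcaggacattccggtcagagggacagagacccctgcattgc
Snhg14 and upstream Snrpn: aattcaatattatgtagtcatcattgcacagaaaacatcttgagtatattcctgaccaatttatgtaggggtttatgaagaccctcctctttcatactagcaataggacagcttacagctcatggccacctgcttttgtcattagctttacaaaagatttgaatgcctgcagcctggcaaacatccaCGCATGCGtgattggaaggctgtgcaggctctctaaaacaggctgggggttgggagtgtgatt

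The Mkrn3 window held CCGGAAGT 2 times, once on each strand, and ATGGCGG 1 time, with no letters in common. Among 32851 RefSeq windows of this length, 2.88% held CCGGAAGT and 2.21% held ATGGCGG. The Magel2 window held GGGCGG 2 times, a motif found in 32.7% of windows. None of the 4 motifs was found in the Peg12 window or in the window shared by Snurf and Snrpn. The palindrome CGCATGCG, present in 1.55% of windows, stood in the window shared by Snhg14 and Snrpn, in the other 2 upstream windows of Snrpn and in that of Ndn. The RefSeq window of Ndn lies within its GENCODE exon and is not shown. GC content was 52.0% for Mkrn3, 42.0% for Peg12, 48.8% for Magel2 and 36.8% for the window of Snurf and Snrpn. These are matches of letters, and binding was not measured.

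As recovered from the deposited values, the libraries held between 10957916 (MD43 replicate 1) and 47298348 (MD43 replicate 2) reads. Levels are given as RPKM, the reads of a gene per kilobase of exon, scaled to the reads of the library. The length counts all exon bases annotated to a gene, so a comparison between genes depends on their gene models. Fold changes are differences of mean log2 RPKM, MD43 minus WT, tested with limma over 13617 autosomal genes with Benjamini-Hochberg adjustment. No autosomal gene was called at an adjusted p under 0.05 (0 of 13617, 0%), with 327 genes (2.4%) at an unadjusted p under 0.05. The 9 markers of PSM and tailbud, T, Tbx6 and Msgn1 among them, summed to between 502 and 722 RPKM in WT and between 521 and 622 RPKM in MD43. The label of the tissue as tailbud with PSM was thus borne out in all 6 libraries, although a source field of the labels names neural stem cells. Neural tube progenitor markers summed to at most 20.4 RPKM.

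The cluster was expressed at very different levels from gene to gene. Snurf was highest with a mean of 127 ± 13.2 RPKM (SD, n = 6), followed by Snrpn at 60.9 ± 3.91, Ndn at 19.7 ± 3.03, Peg12 at 5.10 ± 1.45, Magel2 at 3.52 ± 0.395, Mkrn3 at 1.49 ± 0.341 and Snhg14 at 1.05 ± 0.120 RPKM. This order was the same in the WT mean and in the MD43 mean. It depends on annotated length, as Snhg14 had 4054 reads over 26093 exon bases and Mkrn3 had 559 reads over 2547. The pairs tested were neighbours in the order of mean log2 RPKM over the same 6 libraries. The direction of each mean difference was thus fixed before the test. In 5 of the 6 neighbouring pairs the higher gene was higher in 6 of 6 libraries. Each gave p = 0.03125 (exact sign-flip permutation test, two-sided, adjusted p = 0.0375), the smallest p that 6 libraries allow. Among these pairs is Snurf over Snrpn. All exon bases of Snurf also belong to Snrpn, so that pair does not compare separate measurements. The order of Peg12 and Magel2 did not pass the test, with Peg12 higher in 5 of 6 libraries and a mean log2 difference of 0.50 ± 0.45 (SD, exact permutation p = 0.0625).

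**Figure D1:**
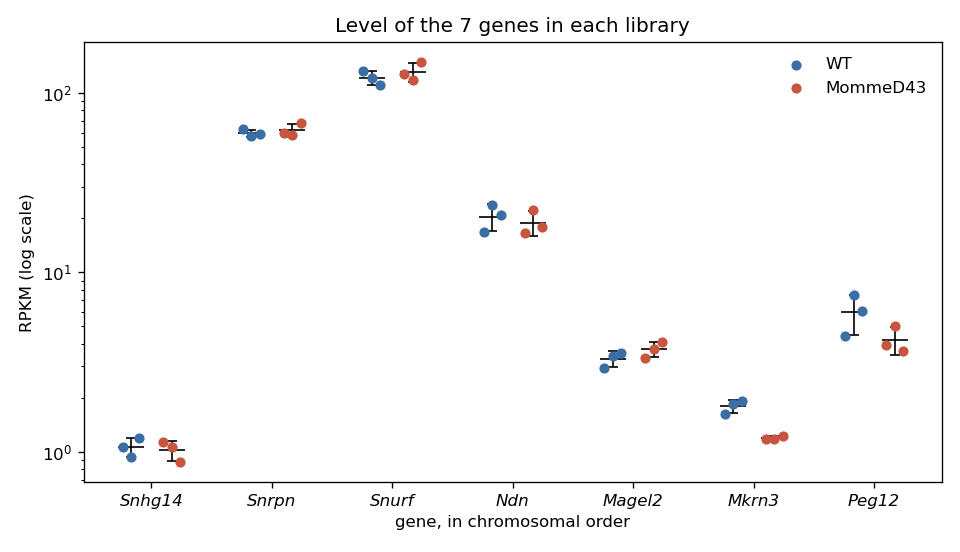
RPKM (log axis) of the 7 genes in chromosomal order, 1 point per library, with the mean and SD of the 3 WT (blue) and 3 MD43 (red) libraries in black. The groups overlap for 6 genes, whereas the 3 MD43 libraries of Mkrn3 lie between 1.18 and 1.23 RPKM and the 3 WT libraries between 1.62 and 1.91 RPKM.

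Snrpn encodes SmN, a form of the SmB protein of the spliceosome that is best known from neurons. Its level was 63.0, 57.5 and 58.8 RPKM in WT replicates 1 to 3, and 60.0, 58.2 and 67.8 RPKM in MD43 replicates 1 to 3. The groups overlapped and differed by less than their spread, with a log2 fold change of 0.05 ± 0.07 (SE) and a 95% confidence interval from −0.11 to 0.21 (limma, adjusted p = 0.999). The widely expressed paralogue Snrpb stood higher, at 213 ± 14.7 RPKM in WT and 218 ± 7.38 RPKM in MD43.

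Snurf, the small protein encoded upstream of SmN in the same transcript, had 133, 122 and 110 RPKM in WT and 128, 118 and 148 RPKM in MD43. The highest and the lowest library belonged to different groups, MD43 replicate 3 and WT replicate 3, and the others lay between. The log2 fold change was 0.11 ± 0.10, with an interval from −0.12 to 0.33. All 216 exon bases of Snurf are also exon bases of Snrpn (2159 exon bases) and of the readthrough gene model Gm38393. Snurf is therefore no measurement independent of Snrpn, and how reads in shared exons were assigned is not given in the sources used here. Reads of Snurf amounted to between 18.8% and 21.9% of those of Snrpn in the 6 libraries. The log2 ratio of Snurf to Snrpn was 1.02 ± 0.101 in WT and 1.08 ± 0.0556 in MD43 (SD, n = 3), and the difference of 0.05 was not beyond the spread (exact permutation test, two-sided, p = 0.5, smallest possible 0.1).

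Snhg14 is the long noncoding transcript downstream of Snrpn that hosts clusters of small nucleolar RNAs and, in neurons, runs antisense to Ube3a. It was the lowest of the 7 genes per length, at 1.07, 0.938 and 1.20 RPKM in WT and 1.13, 1.07 and 0.876 RPKM in MD43. The values were interleaved, with a log2 fold change of −0.06 ± 0.19 (interval −0.50 to 0.37). Of its 26093 exon bases, 6.91% overlap Ube3a on the opposite strand. Ube3a, the ubiquitin ligase affected in Angelman syndrome, had 8.00 ± 1.05 RPKM in WT against 7.29 ± 0.560 in MD43, a log2 fold change of −0.13 ± 0.11. The kit was stranded, and the opposite-strand gene model Gm44560, which overlaps Ube3a over 2025 bases, had 5 reads in all libraries together against 22872 for Ube3a.

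Ndn encodes necdin, a protein of the MAGE family that restrains cell proliferation and promotes neuronal differentiation. Its level was 16.8, 23.8 and 20.8 RPKM in WT and 16.5, 22.2 and 18.0 RPKM in MD43. In both groups the male was lowest and female replicate 2 was highest. The groups overlapped, and the log2 fold change was −0.11 ± 0.14 with an interval from −0.44 to 0.22. Within each group the SD of Ndn on the log2 scale, 0.251 in WT and 0.222 in MD43, was above what read counting alone gives, 0.0344 and 0.0449.

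Magel2, another MAGE protein, which acts with the ligase TRIM27 in endosomal protein recycling, had a higher estimate in MD43, unlike its neighbours Ndn and Mkrn3. WT libraries had 2.94, 3.40 and 3.56 RPKM and MD43 libraries 3.35, 3.74 and 4.11 RPKM. The ranges overlapped, and the log2 fold change of 0.18 ± 0.12 had an interval from −0.11 to 0.46.

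Mkrn3, a makorin ubiquitin ligase known as a brake on the onset of puberty, showed the largest difference of the 7 genes. It was at 1.62, 1.84 and 1.91 RPKM in the WT libraries, which is 151, 111 and 81 reads. In MD43 it was at 1.18, 1.18 and 1.23 RPKM, which is 33, 142 and 41 reads. Each MD43 library was below each WT library. Among all genes tested, 3.55% had groups that did not overlap and were lower in MD43. The mean was 1.79 ± 0.154 RPKM in WT and 1.20 ± 0.0286 RPKM in MD43 (SD, n = 3). The log2 fold change was −0.58 ± 0.15 with an interval from −0.91 to −0.24, which as a percent change is −33.1%. In limma the unadjusted p was 0.00394, which ranked 14 of 13617, and the adjusted p was 0.999, so that Mkrn3 was not called. The unadjusted p was under 0.05 and lower in MD43 for 0.977% of genes.

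Mkrn3 had 559 reads in all. The exact 95% intervals of single libraries, which cover counting error only, ran from 1.37 to 1.90 RPKM in WT replicate 1 and from 0.814 to 1.66 RPKM in MD43 replicate 1, and so overlapped. The interval of MD43 replicate 2, the deepest library, ran from 0.993 to 1.39 RPKM and lay below those of WT replicate 2 (1.52 to 2.22 RPKM) and WT replicate 3 (1.52 to 2.38 RPKM). Counting alone gives the log2 difference a standard error of 0.144, near the 0.146 of the fit. The fit takes its spread in part from other genes of like level, so this nearness does not show what set the precision. Without the mean-variance trend the unadjusted limma p was 0.000614 (adjusted p = 0.999). The 3 MD43 libraries were closer to each other (SD 0.0342 on the log2 scale) than counting error would place them (0.207), so the small SD of MD43 does not measure its precision.

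Peg12, also called Frat3, is an intronless relative of the FRAT proteins, which bind the kinase GSK3 in Wnt signalling. WT libraries had 4.43, 7.47 and 6.08 RPKM, and MD43 libraries had 3.94, 5.04 and 3.65 RPKM. The groups overlapped, since WT replicate 1 was below MD43 replicate 2. The mean was 5.99 ± 1.52 RPKM in WT and 4.21 ± 0.733 RPKM in MD43. The log2 fold change of −0.49 ± 0.20 had an interval from −0.95 to −0.03 and an unadjusted limma p of 0.0382 (adjusted p = 0.999). Leaving out WT replicate 2 brought the estimate to −0.32, with an unadjusted limma p of 0.138. The 2030 reads of Peg12 gave a standard error from counting of 0.0783, below the 0.199 of the fit.

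**Figure D2:**
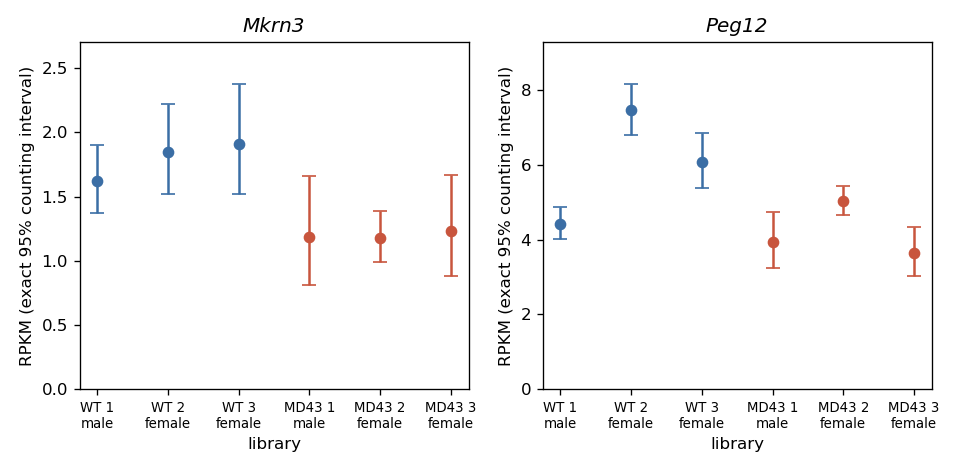
RPKM of Mkrn3 and Peg12 in each library, WT in blue and MD43 in red, with exact 95% intervals for counting error. The Mkrn3 values of the 2 groups do not overlap, although the intervals of some libraries do and those of others, such as MD43 replicate 2 and WT replicates 2 and 3, do not, and Peg12 shows narrow intervals around values from 3.65 to 7.47 RPKM that overlap between the groups.

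Of the 7 genes, 4 were lower and 3 higher in MD43, with a median log2 fold change of −0.06, beside 0.0025 over all genes tested. The 2 with an unadjusted p under 0.05, Mkrn3 and Peg12, are next to each other, 41.7 kb apart at the end of the cluster away from Snrpn. Both were lower in MD43. Over all genes tested, 2.4% reached that p, 0.977% with a lower and 1.42% with a higher value in MD43. Groups that did not overlap, as those of Mkrn3, were found for 7.08% of all genes, 3.55% lower and 3.53% higher in MD43.

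**Figure D3:**
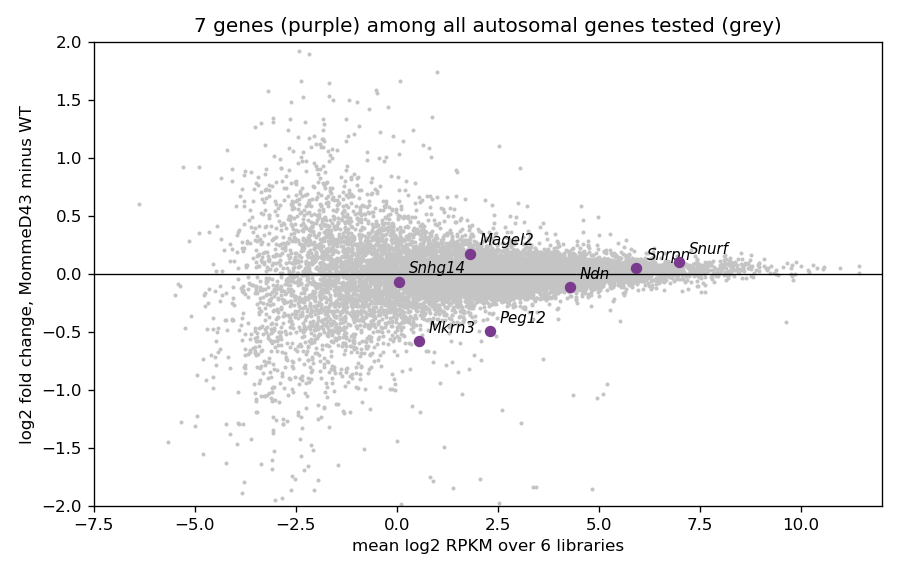
Log2 fold change (MD43 minus WT) against mean log2 RPKM over 6 libraries for the 13617 autosomal genes tested (grey, 11 outside the axis) and the 7 genes of the cluster (purple). A value as low as that of Mkrn3 (−0.58) was found for 2.56% of genes and one as low as that of Peg12 (−0.49) for 3.33%, and the other 5 genes lie between −0.11 and 0.18.

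The male pair, which shared a mother, and the females were also compared separately. Mkrn3 was lower in MD43 in both, by a log2 fold change of −0.45 in the males (1 embryo per genotype) and −0.64 ± 0.18 in the females. For Peg12 the corresponding values were −0.17 among males and −0.65 ± 0.18 among females. The difference between the male and the female effect was not called for any of the 7 genes, with adjusted limma p-values from 0.594 for Peg12 to 0.979 for Magel2, while 37 genes (0.272%) were called. With 1 male per genotype, the spread in this test came from the females alone, and sex cannot be told apart from litter, so the test says little about whether the effects differ.

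Markers of cells other than PSM varied between the dissections. The 6 primitive erythroid markers, among them the embryonic globins Hbb-bh1, Hbb-y and Hba-x, summed to 5.56, 470 and 175 RPKM in WT replicates 1 to 3 and to 13.5, 209 and 14.8 RPKM in MD43. The 3 libraries with the most erythroid RNA, WT replicates 2 and 3 and MD43 replicate 2, were also the 3 with the highest Ndn and the 3 with the highest Peg12. Mkrn3 was also higher in the WT libraries rich in erythroid markers (1.84 and 1.91 RPKM in replicates 2 and 3) than in WT replicate 1 (1.62 RPKM). In MD43 it was at 1.18 RPKM in replicate 2, with 209 RPKM of erythroid markers, and at 1.18 and 1.23 RPKM in replicates 1 and 3. In a fit with the log2 sum of these markers as a covariate, chosen after seeing the data, the log2 fold change was −0.02 for Ndn, −0.37 for Peg12 and −0.55 for Mkrn3. The unadjusted limma p was then 0.00407 for Peg12 and 0.00631 for Mkrn3, both with an adjusted p of 0.9999. In bulk tissue, fewer cells of a type and less RNA per cell cannot be told apart.

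**Figure D4:**
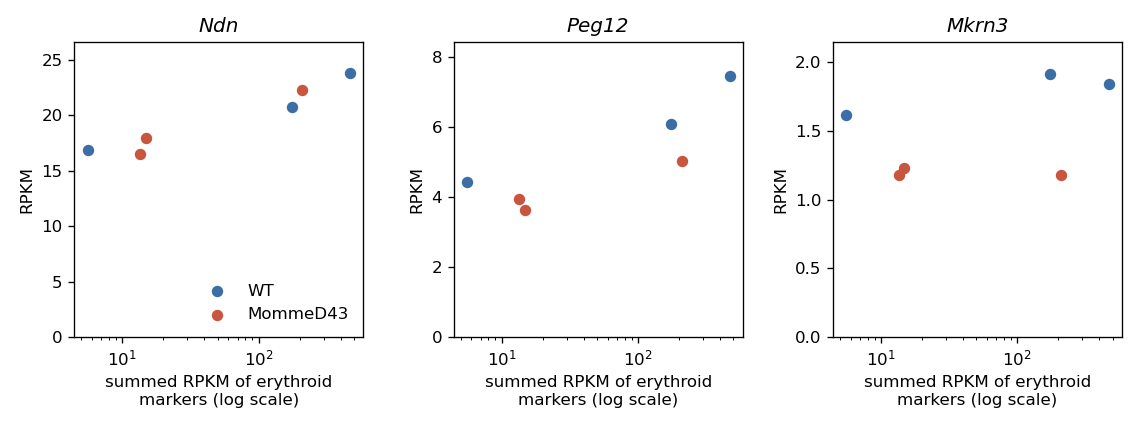
RPKM of Ndn, Peg12 and Mkrn3 against the summed RPKM of 6 primitive erythroid markers (log axis), 1 point per library, WT in blue and MD43 in red. The 3 libraries above 100 RPKM of erythroid markers have the highest Ndn and Peg12, and Mkrn3 is lower in the 3 MD43 libraries than in the 3 WT libraries.

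The 7 markers of yolk sac endoderm summed to between 130 and 267 RPKM in WT and between 36.8 and 414 RPKM in MD43, and all 7 had negative estimates in MD43, 0 of them called. The same held for the 4 erythroid markers tested (median log2 fold change −1.15) and the 5 neuron markers tested (median −0.27), with 0 called. The other sets had positive medians. Among endothelial markers 1 of 5 was lower in MD43 (median 0.39). Of neural tube progenitor markers 2 of 5 tested were lower (median 0.10), and of PSM and tailbud markers 4 of 9 (median 0.02), with 0 called. Neuron markers summed to between 13.0 and 22.6 RPKM in WT and between 12.3 and 16.2 RPKM in MD43, and endothelial markers to between 19.4 and 34.4 RPKM and between 26.7 and 35.1 RPKM. The groups overlapped for each of these sums. Apart from the fit with the erythroid sum, no fit included these markers, and the part of these other cells in the difference of Mkrn3 was not tested.

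Pairs of the 7 genes were compared across the 6 libraries in 21 correlations of log2 RPKM. Snrpn and Snurf, which share exons, gave r = 0.895 (exact permutation p = 0.0153, adjusted p = 0.321) and rho = 0.771 (exact p = 0.103), and r fell to 0.304 without the 2 libraries farthest from the median of Snrpn. Ndn and Peg12 gave r = 0.848 (exact permutation p = 0.0417, adjusted p = 0.384) and rho = 0.771 (exact p = 0.103), with r = 0.942 after the group means were removed and 0.663 without the 2 libraries farthest in Ndn. Snrpn and Peg12 went in opposite directions, with r = −0.769 (exact permutation p = 0.0639, adjusted p = 0.384) and rho = −0.886 (exact permutation p = 0.0333, adjusted p = 0.432). Their r was −0.800 after the group means were removed and −0.877 without the 2 libraries farthest in Snrpn. No pair passed the adjustment. Mkrn3 fell into 2 clusters by genotype, and its correlations with the other members are therefore not given.

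Over the 6 libraries, the pattern of Mkrn3 was most like that of Hlcs (r = 0.983), which encodes the enzyme that attaches biotin to carboxylases, Trmt1l (r = 0.983) and Ccdc106 (r = 0.981), the closest 3 of 13617 genes. Their log2 fold changes were −0.20 ± 0.10, −0.14 ± 0.07 and −0.67 ± 0.18. They are named as a description only. These values of r rest on the same split between WT and MD43 libraries, and picking the closest of so many genes over 6 libraries makes high values of r.

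Of 17 flanking genes on chromosome 7, 14 were tested, 8 with a lower and 6 with a higher estimate in MD43, and 0 were called. Their median log2 fold change was −0.01. Atp10a, next to Ube3a, had 1.91 ± 0.382 RPKM in WT against 2.01 ± 0.145 in MD43, with a log2 fold change of 0.09 ± 0.17. Herc2, a giant ubiquitin ligase named here after its values were seen, was the flanking gene with an unadjusted limma p under 0.05. It had 7.35 ± 0.177 RPKM in WT against 6.40 ± 0.425 in MD43. The groups did not overlap, and 3.55% of all genes tested were lower in MD43 without overlap. The log2 fold change of Herc2 was −0.20 ± 0.08, with an unadjusted limma p of 0.0389 and an adjusted p of 0.999. Of all genes tested, 0.977% had an unadjusted p under 0.05 and were lower in MD43. Gabrg3 and Gabra5, receptor subunits for GABA, had at most 3 and 22 reads in any library and were not tested. Oca2 had 0 reads in each library, where 3 reads set the limit of detection. Within 2 Mb on either side of the cluster, 15 further genes were tested, 8 of them with lower estimates, with a median of −0.01 and 0 at an unadjusted limma p under 0.05.

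**Figure D5:**
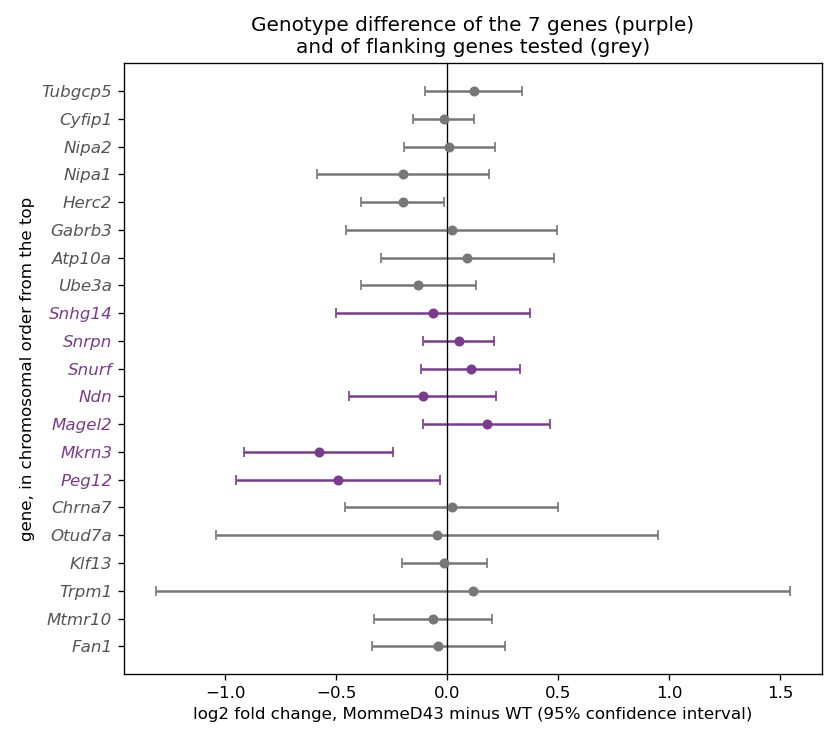
Log2 fold change (MD43 minus WT) with its 95% confidence interval for the 7 genes (purple) and the 14 flanking genes tested (grey), in chromosomal order from the top. Among these genes the intervals of Mkrn3, Peg12 and Herc2 do not include 0.

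Relatives and partners of the 7 proteins were taken as lists. All 7 further genes of the Sm ring, in which SmN takes the place of SmB, had positive estimates from 0.03 to 0.10, with a median of 0.05 and 0 called. Of 12 relatives and partners of the MAGE proteins, 8 were autosomal and tested, 2 lower and 6 higher with a median of 0.05 and 0 called, and the 4 X-linked MAGE genes were left out. Of 6 makorin relatives and targets 3 were tested, with 0 called. Mkrn1 gave 0.07 ± 0.08 and Mkrn2 gave −0.09 ± 0.11, both with intervals that included 0. Kiss1, Tac2 and Gnrh1, hypothalamic genes linked to puberty, had too few reads to be tested. Of 6 FRAT relatives and GSK3 partners, 5 had lower estimates with a median of −0.05 and 0 called. Frat1 gave 0.0046 ± 0.24 and Frat2 gave −0.09 ± 0.12.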

How the data were processed

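Polyadenylated RNA of 6 dissected tailbuds (100 ng each) was made into stranded TruSeq libraries. According to the methods and the submitters' processing notes, reads were trimmed with Trim Galore 0.4.4, mapped with HISAT2 2.0.5 to GRCm38.p6 and quantified per gene with SeqMonk. The deposited values are log2 RPKM, made by the authors from reads per exon length and library size, and the authors' group means were not used. The strand setting of the counting and the release of the annotation are not given in the sources used here. Library totals and the reads of each gene were recovered from these values, taking the value of a gene without a read as 0.9 read. Of 35971 low values above that level, 97.2% were whole reads (within 0.02) once multiplied by GENCODE M21 exon length (35555 of 35591 rows matched) and library total. Each total was the candidate that made the largest share of values whole, so this share is no independent check. A gene was kept if it had 15 reads or more in total and if 3 libraries or more reached, scaled by depth, the equivalent of 10 reads in the median library.

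Groups, replicate numbers and sexes came from the labels. The 13617 autosomal genes kept were tested on the deposited values by limma (version 3.58.1 in R 4.3.3) using a mean-variance trend and no pseudocount, two-sided, and adjusted over all of them. Each library was 1 embryo. The code was tested on simulated data. Exact (Clopper-Pearson) 95% intervals of a gene's share of the library cover counting error only, and 3 reads are the limit for a count of 0. The members and lists were chosen with earlier results of these data known. All 7 members, called genes of the lists, Ube3a, Atp10a, Smchd1 and the 3 genes most like Mkrn3 are named by rule, and others were named after their values were seen. Sequences are from the RefSeq table of GRCm38.p6, where all 7 symbols matched. Alternatives were scaling, pseudocounts, filters, sex, a replicate block, females alone, voom on recovered reads, no mean-variance trend and each library left out. The fit with the erythroid covariate, chosen after seeing the data, was counted among them.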

Additional observations from a re-analysis of the deposited data

How the results depend on the processing

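The estimate for Mkrn3 was negative with an unadjusted limma p under 0.05 in 18 of 18 alternatives, from −0.65 to −0.53 with 1 library left out and from −0.64 to −0.34 otherwise, the last on log2(RPKM + 1), where low genes change less by construction. Its adjusted p was at least 0.524 in each. Peg12 was negative in all 18, with an unadjusted limma p under 0.05 in 12, the fit with the erythroid covariate among them. It ranged from −0.69 to −0.32 with 1 library left out and was −0.32 with voom, and the cause was not tested. No gene was called except with females alone (10 genes, with 1188 at an unadjusted p under 0.05). That unadjusted count was between 187 (without WT replicate 3) and 944 (without WT replicate 1) in the others. With 1 library left out, Snrpn lay between −0.01 and 0.10 (negative without MD43 replicate 3), Ndn between −0.24 and 0.0046 (positive without WT replicate 2), Snhg14 between −0.15 and 0.0437 (positive at 0.0229 without WT replicate 3 and at 0.0437 without MD43 replicate 3), Snurf between 0.01 and 0.18 and Magel2 between 0.10 and 0.25. Snrpn was −0.014 at its lowest. The Snurf to Snrpn log2 ratio differed by between −0.0046 (without WT replicate 3) and 0.0839.

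The paper describes the embryos as paired by somite number. Over 13617 genes, same-numbered libraries of the groups deviated together for replicate 2 (r = 0.17) but not for replicates 1 and 3 (r = −0.03 and −0.17). WT replicate 1 and MD43 replicate 3, of unlike number, gave r = 0.18. Deviations within a group of 3 libraries depend on each other, so these correlations cannot decide whether the replicate numbers mark pairs. The main fit did not take the replicate numbers as pairs. A fit with a replicate block called 0 genes, with 307 at an unadjusted p under 0.05, and left Mkrn3 at −0.58 and Peg12 at −0.49. The unadjusted limma p under that block was 0.00968 and 0.0102. The shallowest library held 33 reads of Mkrn3, which limits how finely it could be measured there.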

Other observations

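Genes that protect or read imprints were expressed in all 6 tailbuds. Of 9 tested, 6 had lower and 3 higher estimates in MD43, with a median log2 fold change of −0.02 and 0 called. Smchd1 itself had 8.07 ± 0.672 RPKM in WT against 7.58 ± 0.40 in MD43 (SD, n = 3), with a log2 fold change of −0.09 ± 0.09 that was within the spread. As MommeD43 is a missense allele, the level of its RNA does not check the labels. Dppa3, a maternal factor that protects methylation in the early embryo and later marks germ cells, was named after its values were seen. Its level of 3.65 ± 0.583 RPKM in WT stood against 5.69 ± 1.01 in MD43, with groups that did not overlap, and 3.53% of all genes tested were higher in MD43 without overlap. Its log2 fold change was 0.64 ± 0.16 (limma, unadjusted p = 0.00428, adjusted p = 0.999). Lrif1, a partner of SMCHD1, gave −0.33 ± 0.16 with an unadjusted limma p of 0.0691 (adjusted p = 0.999). Its groups did not overlap, and 3.55% of all genes tested were lower in MD43 without overlap.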
